A study of Mus musculus with 2 samples.

Results

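Gene deserts were taken here as the parts of mouse chromosomes 1 to 19 that lie more than 100 kb from every start site of a protein-coding gene, and the members were all ATAC-seq peaks whose summit falls there. The rule used position only, not signal. It found 36966 of the 306837 peaks in both lists, 13417 of 127423 vehicle peaks (10.5%, 95% Wilson interval 10.4 to 10.7%) and 23549 of 179414 TAMo peaks (13.1%, 12.97 to 13.28%). ATAC-seq measures open chromatin through a transposase that inserts sequencing adapters into accessible DNA. The cells were OT-I CD8+ T cells, labelled WT in genotype, which carry a transgenic receptor for an ovalbumin peptide. Cultures of both groups received the OVA257-264 peptide for 48 h, either with vehicle or with TAMos, and about 50000 viable CD8+ T cells were then sorted from each for ATAC-seq. TAMos are described in the series as CD11b+Ly6G-Ly6Chigh cells purified from spleens, not tumours, of mice bearing LLC tumours (Lewis lung carcinoma). How many mice or cultures stood behind a library is not stated in the sources used here. There was 1 library per group, so no difference below has a replicate check, no p-value was computed, and all intervals cover counting error only.

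Gene deserts are long stretches without protein-coding genes. Many flank genes for developmental and lineage regulators, and they are known to hold enhancers, which are short stretches of DNA that bind transcription factors and act on a promoter across large distances. In T cells such distant elements are known around genes including Myc and Gata3. Open sites in deserts can also mark the start sites of long noncoding RNAs (lncRNAs), structural elements bound by the architectural factor CTCF, or gene segments of the antigen receptor loci, which annotation does not count as protein-coding genes.

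Depth was read from the peak values: the most frequent background under a summit was 4.71 reads for vehicle and 5.80 for TAMo, a ratio of 1.23. A level is given below as reads at the summit or as a multiple of that background, and a coverage ratio is the log2 of the TAMo multiple over the vehicle multiple. The sorted cells had promoter peaks at 7 of 7 T cell marker genes in both libraries (53.9 to 158 times background in vehicle, 63.97 to 217 in TAMo), with 551 and 654 reads at Cd8a. Of the 2 genes of the CD4 lineage, Cd4 had none and Zbtb7b had 831 and 1144 reads. Of 10 monocyte and macrophage markers, 5 had a promoter peak in vehicle and 7 in TAMo, with summed levels of 191 and 294 times background and single levels of 0 to 108 and 0 to 114. Lyz2 and Ly6c2 were without a peak in both, Csf1r (0 and 100 reads) and Itgam (0 and 118 reads) had a peak in TAMo only, and all 4 neutrophil markers were without a peak. A change in the share of some cells and a change in accessibility per cell cannot be told apart in these bulk libraries, and the part of other cell types in the results was not tested.

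Sequence could be shown only where a desert summit falls into a RefSeq promoter window, 300 bases from 250 before to 50 after an annotated start (GRCm38.p6, the assembly of mm10). These windows serve to show what the open DNA of a desert start site looks like. Of 31365 windows on the chromosomes in that table, 3031 lie in deserts, and 183 of these, of 171 gene symbols, held a desert summit. That is 6.04% of desert windows, against 39.9% of windows within 100 kb of a protein-coding start. By RefSeq type 167 of the 183 belong to lncRNAs and 16 to protein-coding genes. The GENCODE basic annotation does not carry those 16 as starts of protein-coding genes. Desert and nearer windows differ in gene type, which the 2 shares do not take into account. Of 2848 desert windows without a summit, 2719 are lncRNA starts. Of 11313 nearer windows with a summit, 9714 are starts of protein-coding genes. The 6 windows below are the 3 with the highest coverage in both libraries, the 2 with the highest and the 1 with the lowest coverage ratio. Capitals mark matches to any of 15 short motifs.

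Zswim6: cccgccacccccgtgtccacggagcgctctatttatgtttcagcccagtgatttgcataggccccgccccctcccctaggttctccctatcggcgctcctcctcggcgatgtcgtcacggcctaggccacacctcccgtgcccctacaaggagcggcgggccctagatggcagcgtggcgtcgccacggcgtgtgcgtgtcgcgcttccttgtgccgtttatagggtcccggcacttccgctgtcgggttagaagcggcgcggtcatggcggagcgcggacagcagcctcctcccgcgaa
Gm41331: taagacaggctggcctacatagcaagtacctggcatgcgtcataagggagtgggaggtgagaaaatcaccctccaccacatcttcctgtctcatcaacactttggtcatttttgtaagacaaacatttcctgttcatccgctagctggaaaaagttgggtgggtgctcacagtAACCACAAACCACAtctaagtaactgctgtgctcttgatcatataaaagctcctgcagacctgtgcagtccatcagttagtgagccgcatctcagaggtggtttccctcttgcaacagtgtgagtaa
LOC115487176: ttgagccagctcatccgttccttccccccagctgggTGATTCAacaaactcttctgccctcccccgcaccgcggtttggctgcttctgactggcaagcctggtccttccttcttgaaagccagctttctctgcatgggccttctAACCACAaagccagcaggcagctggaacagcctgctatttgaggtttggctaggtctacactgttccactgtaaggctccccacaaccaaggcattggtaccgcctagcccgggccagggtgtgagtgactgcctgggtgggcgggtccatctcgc
4930471E19Rik: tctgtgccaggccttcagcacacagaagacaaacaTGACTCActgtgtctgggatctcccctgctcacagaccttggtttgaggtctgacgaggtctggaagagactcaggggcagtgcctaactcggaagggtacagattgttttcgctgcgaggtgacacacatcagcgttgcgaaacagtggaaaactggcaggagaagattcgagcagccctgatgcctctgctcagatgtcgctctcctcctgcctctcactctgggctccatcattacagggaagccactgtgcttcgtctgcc
A530046M15Rik: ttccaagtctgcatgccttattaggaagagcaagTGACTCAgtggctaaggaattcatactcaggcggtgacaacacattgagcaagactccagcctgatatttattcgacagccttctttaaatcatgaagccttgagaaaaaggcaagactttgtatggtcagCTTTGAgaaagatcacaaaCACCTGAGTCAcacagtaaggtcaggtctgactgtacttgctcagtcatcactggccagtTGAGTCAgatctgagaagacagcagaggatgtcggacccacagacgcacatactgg
Gm19585: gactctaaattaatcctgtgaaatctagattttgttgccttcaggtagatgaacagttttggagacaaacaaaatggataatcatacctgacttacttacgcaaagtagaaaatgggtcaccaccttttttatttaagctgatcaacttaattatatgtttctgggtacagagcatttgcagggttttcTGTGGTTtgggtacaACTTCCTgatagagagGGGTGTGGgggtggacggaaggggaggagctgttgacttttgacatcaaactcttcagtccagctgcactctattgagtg

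The windows lie at chr13:107890015-107890314 (Zswim6, minus strand), chr15:60141661-60141960 (Gm41331, plus), chr9:61013180-61013479 (LOC115487176, plus), chr10:120636058-120636357 (4930471E19Rik, minus), chr13:15806993-15807292 (A530046M15Rik, plus) and chr17:52149039-52149338 (Gm19585, plus). The Zswim6 window had 897 reads in vehicle and 1186 in TAMo, a log2 ratio of 0.10 (−0.02 to 0.23). It is the CpG-rich kind of start, with 67% GC, 34 CpG pairs and no match to the 15 motifs. Gm41331 had 851 and 1417 reads (0.44, 0.31 to 0.56), and its capitals are 2 adjacent copies of TGTGGTT on the opposite strand, the core bound by RUNX factors. LOC115487176 had 901 and 868 reads (−0.35, −0.49 to −0.22), with 1 AP-1 match (TGANTCA, bound by Fos, Jun and Batf proteins) and 1 RUNX match. These 3 windows were strong in both libraries and differed by less than 2-fold.

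The windows with the highest ratios both carry AP-1 matches. The start of 4930471E19Rik, an lncRNA 159638 bp from Hmga2, had 36 reads in vehicle and 495 in TAMo, a log2 ratio of 3.48, with TGACTCA as its only match. That of A530046M15Rik, 204608 bp from Inhba, had 24 and 275 reads (3.22), with 3 AP-1 matches, 1 TCF/LEF match (TCAAAG) and 1 E protein match (CACCTG) that overlaps an AP-1 match. Gm19585, 315999 bp from the T cell genome organiser Satb1, was lower in TAMo, with 274 and 149 reads (−1.18), and holds a RUNX, an ETS (AGGAAGT) and a KLF (GGGTGTGG) match. With only 6 windows, chosen by their coverage, this is a description of these sequences.

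Over all 183 windows, searched on both strands, AP-1 was the motif whose share, in percentage points, stood farthest from that of the other desert windows. TGANTCA occurred in 43 windows (23.5%, 17.9 to 30.1%), against 9.55% of 2848 desert windows without a summit, 7.85% of all windows and 6.52% of windows with a summit within 100 kb of a protein-coding start. RUNX matches were in 13.1% (8.97 to 18.8%), against 6.50%, 5.32% and 4.33% in the same order. KLF matches were in 6.01% (3.39 to 10.4%), against 2.32%, 3.57% and 4.03%. For these 3 factors the interval lay above the share in desert windows without a summit. For the other 12 motifs it did not: ETS was at 12.02% against 10.2%, TCF/LEF at 22.4% against 21.7%, CTCF (CCACNAGGG) at 2.73% against 1.23% and NFAT (GGAAAAT) at 4.92% against 7.44%. The same held for PU.1 (GAGGAAGT), C/EBP (TTGCNNCAA), T-box (AGGTGTGA), STAT (TTCNNNGAA), the Myc E-box (CACGTG), the E protein box (CACCTG), IRF (GAAANNGAA) and NF-kB (GGGANTTTC). A PU.1 match always contains an ETS match. The windows with a summit had a median of 51% GC and 5 CpG pairs, between desert windows without a summit (45.3%, 3 pairs) and windows with a summit near protein-coding starts (61.3%, 21 pairs). These last are mostly starts of protein-coding genes, unlike the desert windows. A match is a run of letters and does not show that a factor was bound.

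Among the 98 windows with whole reads in both libraries the median log2 ratio was 0.28, with 23 higher by 2-fold or more in TAMo and 1 lower by as much. Over all desert regions with a peak in both libraries the median was 0.45, with 29.4% higher and 5.37% lower by as much. Over shared regions of the whole genome 22% were higher and 3.18% lower. Windows with an AP-1 match had a median of 0.46 over 22 ratios, of which 9 were at least 2-fold higher (40.9%). Windows without one had a median of 0.23 over 76 ratios, with 14 at least 2-fold higher (18.4%). For ETS the medians were 1.05 over 14 ratios with a match and 0.23 over 84 without, with 7 and 16 at least 2-fold higher. For RUNX they were 0.69 over 15 and 0.23 over 83, with 6 and 17. The higher share was thus not particular to AP-1. For TCF/LEF the medians were 0.34 over 19 and 0.23 over 79, with 4 and 19, so the share was no higher with a match. The 5 windows with a CTCF match all had a summit in both libraries, and none was 2-fold higher or lower. These groups of windows are small and were set apart after the data were seen. Some windows overlap and hold the same peak, such as those of Gm33398 and Gm33323 (160 and 527 reads in each). Each was counted here and in the motif shares, whose intervals take the windows as separate.

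Desert peaks were few for the ground they cover. Deserts make up 966 Mb, 40.3% of the 2397 Mb between the outermost start sites, and held 13.9 vehicle and 24.3 TAMo peaks per Mb, against 79.6 and 108.8 per Mb within 100 kb of a start. They were also weak. The median summit had 48 reads in vehicle and 53 in TAMo, against 60 and 76 in distal peaks within 100 kb and 212 and 244 at promoters (within 1 kb of a start), while the median width, 267 and 264 bp, was close to that of distal peaks within 100 kb (259 and 270 bp). The number of TAMo peaks over vehicle peaks was 1.76 in deserts, 1.41 over all peaks and 1.09 at promoters. With equal numbers of the strongest peaks taken from both lists the desert ratio was 1.11; the remaining excess lay among TAMo peaks weaker than those.

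A TAMo peak overlapped 85.7% of vehicle desert peaks (85.0 to 86.2%), and 14.3% had no TAMo peak; over all vehicle peaks 12.5% had none. A vehicle peak overlapped 47.5% of TAMo desert peaks (46.9 to 48.2%), and 52.5% had no vehicle peak; over all TAMo peaks 39.5% had none. Among distal peaks within 100 kb, 41.4% of TAMo and 13.7% of vehicle peaks were unshared. The unshared share of TAMo peaks was thus higher in deserts than over the list or in those distal peaks, while that of vehicle peaks was nearly the same. TAMo desert peaks without a vehicle call were weak, with a median of 34 reads against 110 in the shared ones. Of the 7125 TAMo desert peaks with at least 100 reads, 84.4% were shared, as were 95.1% of the 3651 such vehicle peaks. In the top 10% of the TAMo list by strength, 98.8% of desert peaks were shared (98.1 to 99.3%), close to the 99.0% of distal peaks within 100 kb. In the bottom 10%, 15.2% were shared (14.0 to 16.5%), below the 20.4% of those distal peaks (19.8 to 21.1%). Coverage of the other library is not given at an unshared peak, so it cannot be read from these lists whether such a site was closed there.

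Peak density fell with distance from the nearest start site in both libraries, and faster in vehicle. From 100 to 150 kb there were 5844 vehicle and 9419 TAMo peaks, or 29.9 and 48.1 per Mb, a ratio of 1.61. From 300 to 500 kb there were 1383 and 2708 peaks (7.02 and 13.7 per Mb, ratio 1.96). Beyond 1000 kb there were 90 and 535 peaks (1.12 and 6.63 per Mb, ratio 5.94). The most remote desert DNA thus held a peak list that was mostly TAMo's. The share of TAMo peaks overlapped by a vehicle peak was 52.4% from 100 to 150 kb, 41.3% from 300 to 500 kb, 29.4% from 500 to 1000 kb (27.2 to 31.8%) and 14.2% beyond 1000 kb (11.5 to 17.4%). In vehicle it stayed between 82.4% and 86.8%. The median TAMo summit went from 61 to 29 reads over the same range. Among TAMo peaks with at least 100 reads no such decline appeared: 85.1% were shared from 100 to 150 kb and 89.7% of 29 peaks beyond 1000 kb (73.6 to 96.4%). With lists of equal length the number ratio still went from 1.07 to 2.29 and the shared share from 67.1% to 30.1%. The change at 100 kb itself was smooth, with 53.9% of TAMo peaks shared from 90 to 100 kb and 53.4% from 100 to 110 kb.

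**Figure D1:**
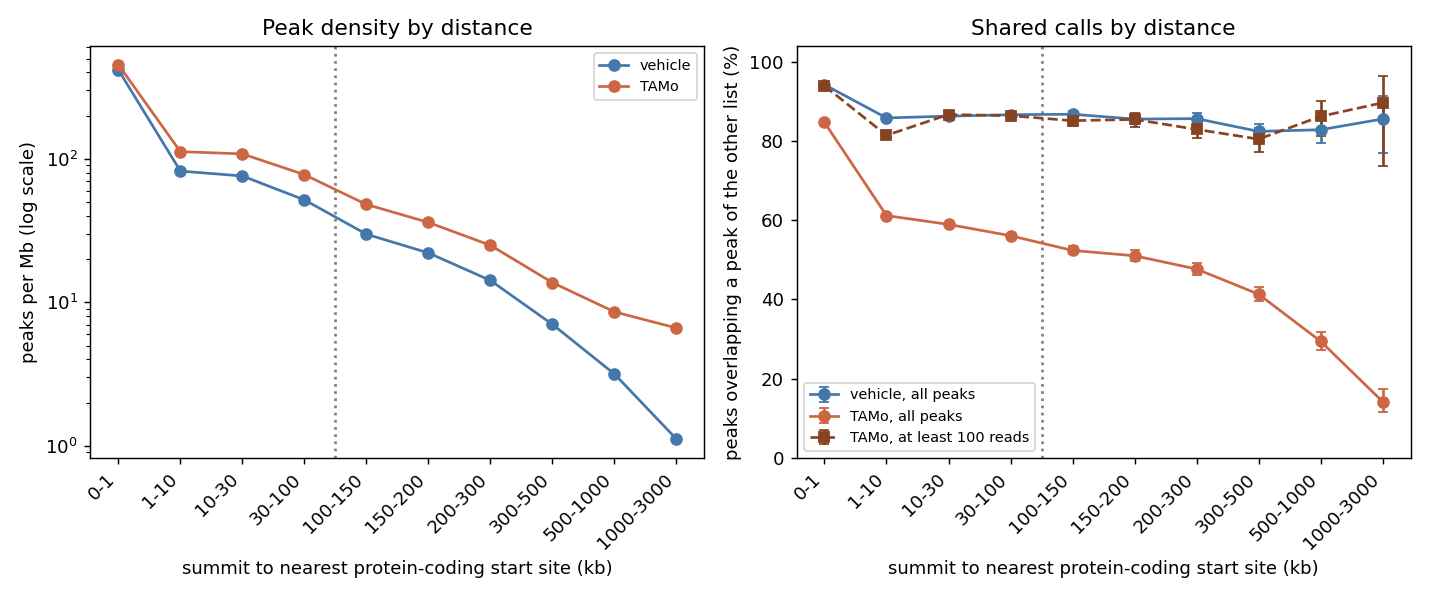
Peaks per Mb on a log scale (left) and the share of peaks overlapping a peak of the other list in percent (right), by distance of the summit from the nearest protein-coding start site in kb, for vehicle (blue) and TAMo (orange). Bars are 95% Wilson intervals, the dotted line marks 100 kb, and squares show TAMo peaks with at least 100 reads, which stay between 80.5% and 93.9% while all TAMo peaks fall to 14.2%.

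Joining overlapping intervals gave 25154 desert regions, of which 10877 had a peak in both libraries, 1925 in vehicle only and 12352 in TAMo only. In 10872 of the shared regions both summits gave whole reads. Their median log2 coverage ratio was 0.45 (quartiles −0.12 and 1.16), against 0.36 in 75233 distal regions within 100 kb, 0.05 in 17723 promoters and 0.28 over all 103828 shared regions. Relative to that overall median the desert median was 0.17. In deserts 3201 regions were at least 2-fold higher in TAMo (29.4%) and 584 at least 2-fold lower (5.37%), against 22% and 3.18% of all shared regions. At least 4-fold, 936 were higher (8.61%) and 70 lower (0.644%), against 5.91% and 0.324%. In distal regions within 100 kb, 24.9% were at least 2-fold higher and 3.39% lower, and 6.75% at least 4-fold higher and 0.35% lower. Both tails were thus fuller in deserts than over the genome, and by less than in those distal regions alone. Of the desert regions past 2-fold, 84.6% were higher in TAMo. With all ratios centred on the median of all shared regions, 2402 were higher and 971 lower, or 71.2% higher; over all shared regions the same shares were 87.4% uncentred and 72.1% centred.

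**Figure D2:**
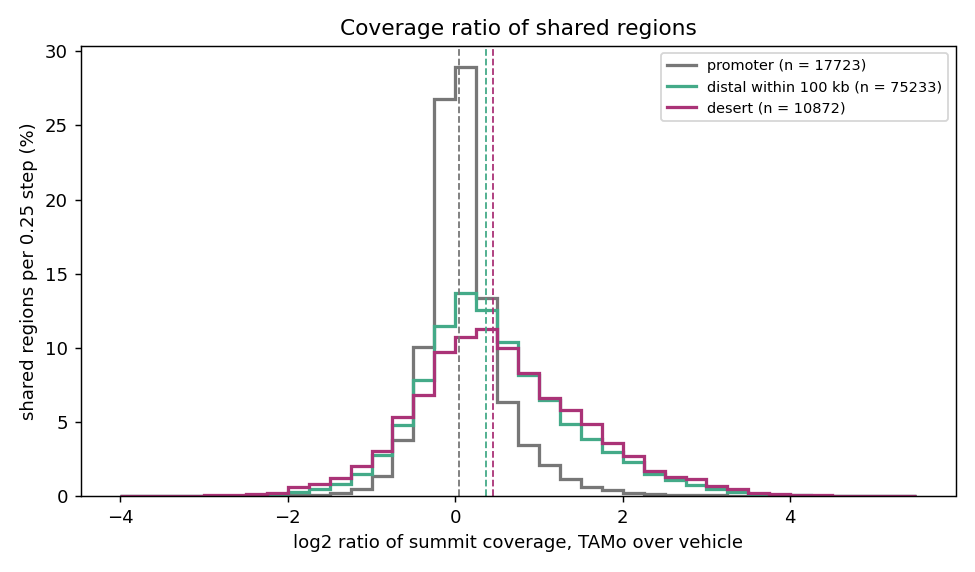
Percent of shared regions in each step of 0.25 on the log2 coverage ratio, TAMo over vehicle, for promoters (grey), distal regions within 100 kb (green) and desert regions (purple), with dashed lines at the medians of 0.05, 0.36 and 0.45. Promoters cluster near 0, and the desert curve is the widest on both sides.

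The gap between the 3 classes varied with strength. In regions whose mean level was 16 to 32 times background the medians were 0.69 in deserts, 0.50 in distal regions within 100 kb and 0.15 at promoters, and 40.2%, 31.7% and 10.02% were at least 2-fold higher. Above 64 times background the medians were 0.22, 0.23 and 0.01, and desert and nearer distal regions were nearly equal. By distance the median was 0.45 at 100 to 150 kb, 0.46 to 200 kb, 0.51 to 300 kb, 0.38 to 500 kb, 0.28 to 1000 kb and 0.52 in the 76 regions beyond. Regions inside protein-coding genes (4048, median 0.48) and outside them (6824, 0.44) had like medians, as had the 310 within 1 kb of an lncRNA start (0.43).

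Most desert peaks lay away from any annotated start. In vehicle and TAMo, 36.04% and 35.04% were in introns of protein-coding genes, whose own start was then more than 100 kb away, and 1.01% and 0.87% were in exons. A further 13.4% and 12.2% were in lncRNA bodies, and 46.9% and 49.6% were in no annotated gene. Only 2.89% of vehicle and 2.17% of TAMo desert peaks lay within 1 kb of an lncRNA start. Among TAMo desert peaks that share was 2.93% (2.63 to 3.26%) in shared peaks and 1.49% (1.29 to 1.72%) in peaks without a vehicle call, of which 52.2% were in no annotated gene against 46.7% of shared ones.

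The 8 desert regions with the highest coverage in both libraries, among those with whole reads in both, are described next. Choosing them for coverage in both favours near-equal values: of the 1195 shared desert regions above 64 times background by mean level, 14.7% were at least 2-fold higher. The ribosomal RNA site on chromosome 17, with 8530 and 4366 reads, gave no whole coverage in TAMo and is left out. The first region lies within the lncRNA gene Lncpint, 167599 bp from Klf14 (chr6:31126222-31126987), with 1388 reads in vehicle and 1660 in TAMo, a log2 ratio of −0.04 (−0.15 to 0.06). A region 117247 bp from Fasl, the death ligand used by killer T cells (chr1:161670716-161671580), had 1077 and 1325 reads (0.00, −0.12 to 0.12). Others lay near Cd47, which encodes a surface signal against phagocytosis (chr16:49982123-49982874, 1079 and 1260 reads, −0.08), and Sspn, for the membrane protein sarcospan (chr6:146080788-146081602, 1182 and 1443 reads, −0.01). These 4 intervals all include 0. The region near Bcat1, the cytosolic branched-chain aminotransferase (chr6:144901894-144903558), had 994 and 1398 reads (0.19, 0.07 to 0.31). That near Trib1, a pseudokinase gene (chr15:59795687-59796305), had 1138 and 1211 reads (−0.21, −0.33 to −0.09). The other two were near B3gnt2 (1338 and 1516 reads, −0.12) and the ribosomal stalk gene Rplp1 (1015 and 1217 reads, −0.04). The 8 ratios ran from −0.21 to 0.19. By fold over local background the regions near Trib1 and B3gnt2 were at 0.091 and 0.048, and centred on all shared regions that near Bcat1 was at −0.086.

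Single desert regions differed far more, and the 6 highest and 6 lowest ratios among regions with at least 50 reads in the higher library show the range. The highest was 130193 bp from 1500015O10Rik (chr1:43599987-43600614), with 14 reads in vehicle and 576 in TAMo (5.06, 4.30 to 5.94). Introns of Hecw2, a ubiquitin ligase gene (chr1:54093078-54093677, 16 and 617 reads, 4.97), and Rptor, which encodes the mTORC1 subunit Raptor (chr11:119724608-119725040, 16 and 444 reads, 4.49), followed. The next, 255747 bp from the stress-response gene Gadd45g within the lncRNA gene 4921525O09Rik (chr13:52102040-52102616), had 26 and 719 reads (4.49). Regions near Cox10, needed for haem A synthesis (chr11:64188723-64189189, 19 and 502 reads, 4.42), and 426131 bp from the transcriptional coregulator gene Zmiz1 (chr14:25032753-25033426, 20 and 514 reads, 4.38) completed the 6. All 6 vehicle summits had 14 to 26 reads, so these ratios rest on few vehicle reads.

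The lowest ratio was 281468 bp from Ppp3ca, which encodes a catalytic subunit of the phosphatase calcineurin (chr3:136951716-136952632), with 291 reads in vehicle and 23 in TAMo (−3.96, −4.64 to −3.35). It was followed by a region 347816 bp from Cblb, a ubiquitin ligase that restrains T cell activation (chr16:51683197-51683586, 287 and 28 reads, −3.66). An intron of the potassium channel gene Kcnk10 (chr12:98445592-98446101) had 361 and 39 reads (−3.51), and a region near Csl (chr10:99555764-99556415) had 353 and 39 reads (−3.48). An intron of Ptprn2 (326 and 40 reads, −3.33) and a region 412749 bp from Actbl2 (171 and 22 reads, −3.26) were next. The TAMo summits of these 6 had 22 to 40 reads, and the lowest ratio lay closer to 0 than the highest.

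Of peaks called in TAMo only, the strongest lay 203752 bp from Cyp26b1, a retinoic acid hydroxylase gene (chr6:84383409-84384199, 738 reads), and 125512 bp from Rbbp6 (chr7:122844837-122845242, 632 reads). The next 4 were in introns of Syne1 (598 reads) and Tmtc2 (602 reads) and near Cox10 (448 reads) and Rchy1 (382 reads). Of peaks called in vehicle only, the strongest was in an intron of Itpr1, a calcium release channel gene, 178022 bp from Bhlhe40 (chr6:108482326-108482969, 502 reads). A vehicle peak 514558 bp from Ptger4, a receptor gene for prostaglandin E (chr15:5758266-5759347), had 312 reads. Others were in introns of Atrnl1 (203 reads) and Prkch (363 reads), near 3110018I06Rik (429 reads), and within the lncRNA gene Pvt1, 301027 bp from Myc (chr15:62288239-62288646, 309 reads).

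Deserts were then taken core by core. A desert core is the stretch between neighbouring protein-coding start sites with 100 kb removed at each end. There were 2431, with a median length of 179 kb and the longest at 5.22 Mb. Of these 1774 held at least 1 region and 657 none, and 226 cores held 50% of the regions. The 12 fullest cores held 1749 regions, 6.97% of all in 1.46% of the desert sequence. The TAMo excess grew with size: the ratio of TAMo to vehicle regions was 1.61 in cores under 100 kb and 3.14 in the 72 longest cores, where 24.7% of regions had both peaks against 50.3%. Median ratios of the 334 cores with at least 10 ratios ran from −1.26 to 1.94 (quartiles 0.14 and 0.76), and 288 were above 0.

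**Figure D3:**
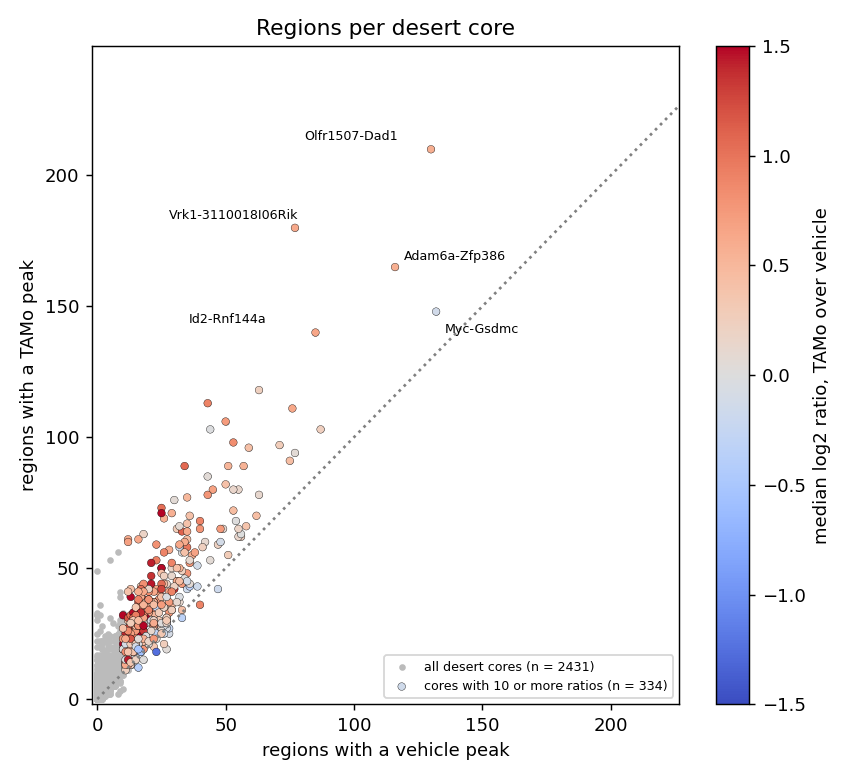
Each point is a desert core, placed by its number of regions with a vehicle peak (x axis) and with a TAMo peak (y axis); colour gives the median log2 coverage ratio of the 334 cores with at least 10 ratios. Nearly all of the fuller cores lie above the dotted line of equal numbers, and Myc-Gsdmc, with 132 and 148 regions, lies close to it.

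The fullest core, between Olfr1507 and Dad1 (chr14:52595750-54153913, 219 regions, 130 with a vehicle and 210 with a TAMo peak), is the T cell receptor alpha and delta locus, and the third, between Adam6a and Zfp386 (chr12:113643909-115947723, 186 regions, 116 and 165), is the variable part of the immunoglobulin heavy chain locus. Both are deserts only because receptor segments are not counted as protein-coding genes. Their medians were 0.58 and 0.58. The other 10 fullest cores lie outside the antigen receptor loci. They include lncRNA genes such as Pvt1, and Kif2a-Smim15 holds the Zswim6 start printed above. The core between Vrk1 and 3110018I06Rik (chr12:106130718-107388631), beyond which lies the T cell lineage gene Bcl11b, had 188 regions, 77 in vehicle and 180 in TAMo, with a median of 0.63 and 26 of 69 ratios at least 2-fold higher against 1 lower. A region there (chr12:106944698-106945312) had 90 reads in vehicle and 981 in TAMo (3.15, 2.83 to 3.47), while the strongest (chr12:107127539-107128127) had 820 and 852 (−0.25).

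The medians of the other 9 of the fullest cores ran from −0.14 to 0.91; over all desert ratios 29.4% were at least 2-fold higher and 5.37% lower. Id2-Rnf144a (152 regions) had a median of 0.65 with 25 of 73 ratios at least 2-fold higher and 2 lower, Foxo1-Cog6 (121 regions) 0.64 with 25 and 3 of 66, Cd83-Jarid2 (115 regions) 0.74 with 16 and 1 of 41, and Sall3-Galr1 (118 regions) 0.91 with 17 and 0 of 38. Wwox-Maf (124 regions) had 0.23 with 14 and 5 of 57, Kif2a-Smim15 (121 regions) 0.24 with 11 and 7 of 69, and Rad51b-Zfp36l1 (116 regions) 0.28 with 10 and 5 of 52. Ccdc54-Cblb (111 regions) had 0.07 with 11 and 6 of 60. Myc-Gsdmc (178 regions) was at −0.14 with 15 and 17 of 102. Centred on the median of all shared regions, 4 of the 12 cores lay below 0: Myc-Gsdmc at −0.42, Ccdc54-Cblb at −0.21, Wwox-Maf at −0.052 and Kif2a-Smim15 at −0.042. By fold over local background Myc-Gsdmc was at 0.23.

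**Figure D4:**
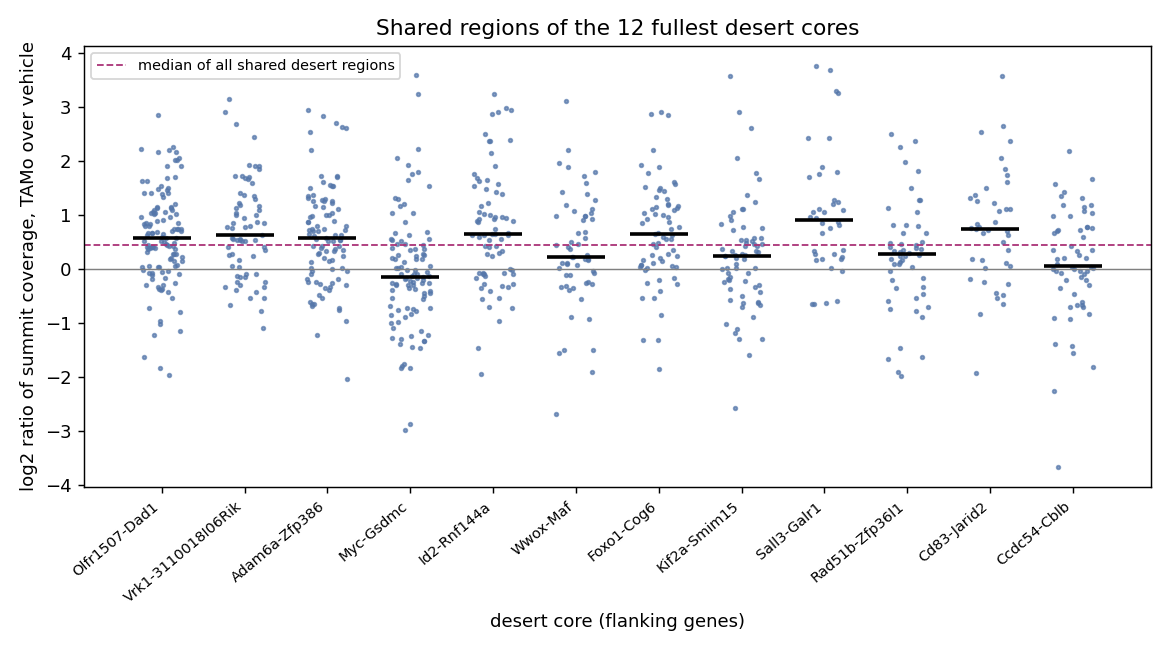
Log2 coverage ratio, TAMo over vehicle, of each shared region (points, spread sideways for visibility) in the 12 fullest desert cores; black bars are medians and the dashed line is the median of all shared desert regions, 0.45. Every core spans at least from −0.65 to 2.19, so the differences between cores are small beside the spread within them.

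The Myc-Gsdmc desert extends 1821 kb from the start of Myc, the growth-promoting transcription factor induced on T cell activation, through the lncRNA gene Pvt1 to Gsdmc. It was densely open in both libraries near Myc. The region with the highest coverage in both, within Pvt1 (chr15:62144970-62145554), 157942 bp from Myc, had 973 reads in vehicle and 1099 in TAMo (−0.12, −0.25 to 0.00), and another, 202 kb from Myc, had 1205 and 905 (−0.71). By distance from Myc, the median ratio was 0.04 over 19 regions at 100 to 200 kb and −0.12 over 16 at 200 to 300 kb. From 400 to 500 kb it was −0.84 over 13 regions, of which 6 were at least 2-fold lower and 0 higher; the lowest region of the core, at 379 kb (chr15:62366248-62366655), had 153 and 24 reads (−2.97). From 800 to 900 kb it was −0.52 over 17 regions, with 4 lower and 0 higher. The next stretch, 900 to 1000 kb, went the other way, with 1.94 over 5 regions and 4 higher, among them 20 and 299 reads at 952 kb (3.60) and 15 and 174 reads at 970 kb (3.24). From 700 to 800 kb it was near 0 over 8 regions. These signs rest on the library background: by fold over local background the medians were 0.37 from 400 to 500 kb, 0.39 from 800 to 900 kb and 1.04 from 900 to 1000 kb.

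**Figure D5:**
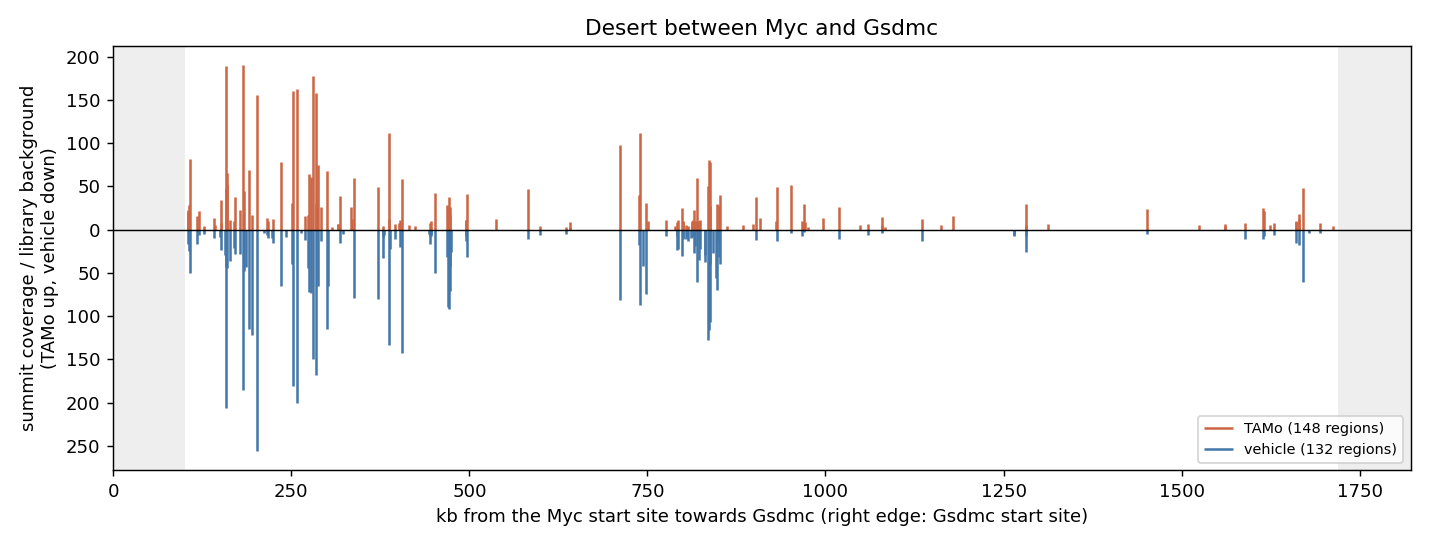
Summit coverage as a multiple of library background for each region between Myc and Gsdmc, by distance from the Myc start site in kb, with TAMo upwards (148 regions) and vehicle downwards (132 regions). Grey marks the 100 kb next to each start site; vehicle bars are the longer at 400 to 500 kb and TAMo bars at 900 to 1000 kb.

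On the other side of Myc, upstream, 49 desert regions were nearest to it, 27 in vehicle and 44 in TAMo, with a median of 0.96 over 22 ratios, 11 at least 2-fold higher and 1 lower. The highest there (chr15:61613236-61613733), 371980 bp from Myc in the lncRNA gene D030024E09Rik, had 23 and 240 reads (3.08, 2.46 to 3.77). Of the 138 regions downstream, 7 were higher and 17 lower over 83 ratios, with a median of −0.22. Counting both sides, Myc was the nearest protein-coding gene of 187 desert regions, more than any other gene.

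Tox, which encodes a nuclear factor of exhausted and memory T cells, also differed between sides in its medians. Downstream of its start, within and beyond the gene, 42 regions had a median of −0.64 over 22 ratios, with 3 at least 2-fold higher and 5 lower. Upstream, 39 regions had 0.70 over 14 ratios, with 6 and 4. The downstream side included the highest region near Tox, in its own intron (chr4:6758863-6759404), with 21 reads in vehicle and 203 in TAMo (2.97, 2.32 to 3.70). The upstream side included the lowest (chr4:7214996-7215435), with 78 and 22 reads (−2.13). By fold over local background the Tox median over both sides was 0.17, against −0.12 by library background, and that of Myc 0.22 against −0.14.

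The other list genes with most desert regions fell into those with medians above and those near or below 0. Gata3, a lineage factor, had 102 regions, all downstream, with a median of 0.44 and 17 higher and 7 lower of 59 ratios; its strongest (chr2:9577831-9578643) had 716 and 933 reads (0.08). Id2, an inhibitor of E proteins, had 97, all upstream, with 0.65 and 20 and 1 of 49; the highest (chr12:25462729-25463465) had 13 and 151 reads (3.24). Ets1, a founding ETS factor, had 76, all downstream, with 0.39 and 10 and 1 of 48; its strongest (chr9:32941070-32941946) had 873 and 1252 reads (0.22, 0.09 to 0.35), and its highest (chr9:32855568-32856083) 31 and 376 (3.30). Rora, a nuclear receptor, had 66 regions with 0.46 and 9 and 0 of 30. Satb1 had 62 with 0.43, among them the highest (chr17:51981083-51982025) with 31 and 381 reads (3.32), and the lowest of these, within the lncRNA gene Gm19585 whose start is printed above, with 189 and 89 (−1.39). Maf had 77 regions with a median of 0.32, and Sox5 had 73 with 0.15.

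Below or near 0 were Klf6, a zinc finger factor (88 regions, 74 in vehicle and 72 in TAMo, −0.12, 9 higher and 13 lower of 58 ratios), Foxn3, a forkhead repressor (59 regions, −0.35, 5 and 7 of 38), and Cblb (98 regions, 0.02, 7 and 7 of 56). The strongest near Foxn3 (chr12:99641271-99641751) had 854 reads in vehicle and 717 in TAMo (−0.55, −0.70 to −0.41). With the summit fold over local background in place of library background the Foxn3 median was 0.12 and that of Klf6 0.070. Centred on all shared regions, Sox5 was at −0.13 and Cblb at −0.25. For Klf6 the upstream side had 3 higher and 11 lower over 34 ratios, and the downstream side 6 and 2 over 24. Cblb had ratios from −3.66 to 2.14, and its strongest region (chr16:51704891-51705574) had 854 and 1004 reads (−0.07).

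The extreme medians among the 334 cores lay elsewhere. Between Mki67, the proliferation antigen gene, and Mgmt, a DNA repair gene (chr7:135816362-136794613), 26 regions held 23 vehicle and 18 TAMo peaks, and the 15 ratios had a median of −1.26, with 0 at least 2-fold higher and 10 lower. Between Cntn3 and Chl1 the median was −0.71 over 12 ratios. Within the kinase gene Prkca it was −0.53 over 23, with 2 higher and 8 lower, between Nsmaf and Tox −0.55 over 25, and between Abca13 and Vwc2 −0.57 over 12. At the other end were Crb2-Dennd1a (1.94 over 11 ratios, 9 higher and 0 lower), Kit-Kdr, between 2 receptor kinase genes (1.91 over 10, 8 and 0), Xylt1-Rps15a (1.81 over 13, 10 and 2) and Hmga2-Msrb3 (1.66 over 15, 8 and 0), which contains the 4930471E19Rik window printed above. Runx1-Setd4, next to the gene of a RUNX factor, had 1.63 over 22, with 16 and 0, and regions in TAMo outnumbered those in vehicle by 71 to 25. These cores were picked for their medians out of 334, so their values are a description. Among cores of 300 to 1000 kb, Chd7-Clvs1 (195), Phlpp1-Bcl2 (164) and Tbc1d1-Klf3 (142) were the densest by vehicle regions per Mb. Some shorter cores were as dense, such as that within Prkca.

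Desert regions were also counted by nearest gene in lists of T cell, developmental and myeloid genes. These lists were chosen with earlier results of these data known. A gene can be counted only where it borders a desert, and the length of desert per gene was not taken into account. Of 51 T cell transcription factor genes, 29 (56.9%) were the nearest gene of at least 1 desert region, with 1331 regions or 26.1 per gene. Over all 20780 protein-coding genes the share was 12.02% and the mean 1.21 per gene. In that list 51.5% of regions had a peak in both libraries, the median ratio was 0.26, and 178 of 686 ratios were at least 2-fold higher (25.9%) and 70 lower (10.2%), against 29.4% and 5.37% over all desert regions. Of 40 genes for T cell receptors, ligands and effectors, 12 (30.0%) were nearest to 394 regions (median 0.30, 46 and 13 of 208 ratios), among them Pdcd1, for the inhibitory receptor PD-1, with −1.14 over 6 ratios. Of 30 developmental genes, 21 (70.0%) were nearest to 343 regions, where 34.7% had both peaks and the median was 0.51 (43 and 6 of 119). Of 19 myeloid genes 3 (15.8%) were nearest to 13 regions, 6 of them near Cebpb, which encodes a C/EBP factor. Over all desert regions 43.2% had both peaks, and the median was 0.45.

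Within these lists some genes stood well above the desert median. Near Sox4, whose factor acts in lymphocyte development, the median was 1.61 over 18 ratios, with 12 at least 2-fold higher and 0 lower. Runx1 had 2.01 over 15 (10 and 0), Bcl11b 1.62 over 11 (7 and 0), Foxo1 1.02 over 28 (15 and 1), Smad7, an inhibitor of TGF-beta signalling, 1.03 over 24 (12 and 0), and Cd83 1.22 over 13 (9 and 0). Desert regions near genes of the same list thus ranged from a median of −1.14 (Pdcd1) to 1.22 (Cd83) among receptors and effectors. The nearest gene is a naming rule and need not be the gene a region acts on. The genes in this paragraph were picked after their values were seen.

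The antigen receptor loci held 311 vehicle and 461 TAMo desert peaks, 2.32% and 1.96% of the total. In the T cell receptor alpha and delta locus there were 140 and 213 desert peaks, with a median ratio of 0.58 over 121 regions. Of these, 37 were at least 2-fold higher (30.6%) and 6 lower (4.96%), close to the 29.4% and 5.37% of all desert regions. The constant segment Trdc (chr14:54146431-54147818) had 426 and 704 reads (0.42), Trdv2-2 had 241 and 478 (0.69), and Trav15-1-dv6-1 (chr14:53559434-53560612) had 541 and 187 (−1.83, −2.08 to −1.59). In the beta locus Trbv15 had 303 and 990 reads (1.41), and the 15 desert ratios had a median of 0.39. In the gamma locus 16 ratios had 0.84. OT-I cells carry a rearranged receptor transgene, and reads of segments it contains cannot be told apart from those of the chromosomal locus.

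The immunoglobulin heavy chain locus was open at many segments although the sort was for CD8+ T cells. It held 132 vehicle and 176 TAMo desert peaks, with a median ratio of 0.62 over 102 regions, 35 at least 2-fold higher (34.3%, against 29.4% of all desert regions) and 2 lower. The 61 regions on segments had a median of 0.75. Ighv1-14 (chr12:114646247-114646918) had 56 reads in vehicle and 449 in TAMo (2.70), Ighv14-3 had 54 and 414 (2.64), Ighv14-2 had 174 and 476 (1.15), and Ighg2b (chr12:113305685-113306342) had 145 and 524 (1.55). In contrast Ighv1-47 had 321 and 399 (0.01) and Ighv8-1 had 63 and 19 (−2.03). Light chain loci held little, with 5 and 24 desert peaks at Igk and 0 and 1 at Igl. Of 5 B cell markers, 2 had a promoter peak in vehicle and 3 in TAMo. Cd79a had none in either library, Ms4a1 had 26 and 65 reads, Cd22 20 and 26 and Pax5 0 and 30; their summed levels were 9.77 and 20.9 times background, with single levels from 0 to 5.52 and 0 to 11.2. Whether B cells had a part in these values was not tested.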

How the data were processed

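Each of the 2 ATAC-seq libraries was made, per the labels' protocols, with a Vazyme TruePrep kit and read as 150 bp pairs. Trimmomatic 0.36, Bowtie2, MACS2 and mm10 stand in the submitters' processing notes; peak calling options, read shifting and duplicate removal were not given in the sources used here. Each library has its own deposited peak list (163215 and 225656 rows), with an interval, summit, score, fold enrichment (a ratio from the authors' MACS2 run), −log10 p and −log10 q per row. Rows with the same interval were counted as 1 peak, at the summit of highest −log10 q.

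Coverage was recovered from the deposited fold, taken as (reads + 1)/(background + 1), and the Poisson −log10 p; 30 vehicle and 48 TAMo rows gave no whole number within 1% of a step. The recovery was tested on simulated data. Ratios carry 95% exact binomial intervals and shares 95% Wilson intervals; reads are not independent molecules. Overlap was at least 1 bp. Distances used start sites of 20780 autosomal protein-coding genes (GENCODE M21 basic). Python 3.11.15, pandas 2.3.3 and scipy 1.17.1 were used.

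Named were the 12 fullest cores, the 8 shared regions strongest in both libraries, the 6 highest and 6 lowest ratios with at least 50 reads, the 6 strongest peaks of each list alone and the 12 list genes nearest to most regions; others were chosen after their values were seen. Members and lists were chosen with earlier results of these data known. The planned motif, GC and repeat content around all summits needs a genome, which was not used here. Motifs were searched in the RefSeq promoter windows, which leave out chromosome 18. Some single genes of the lists are not reported here. Alternatives changed the distance, annotation, −log10 q, list length, overlap, scaling, read minimum and antigen receptor loci.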

Additional observations from a re-analysis of the deposited data

How the results depend on the processing

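Moving the distance to 50 kb or 200 kb changed the desert share: 22.8% and 3.61% of vehicle peaks, 26.4% and 5.17% of TAMo peaks, number ratios of 1.63 and 2.02, TAMo shared shares of 51.3% and 40.8%, and a vehicle shared share of 84.3% at 200 kb. At those distances 4.62% and 6.18% of shared regions were at least 2-fold lower, 3793 and 745 cores held a region, 499 and 90 cores held 50% of regions, and the 12 fullest held 3.82% and 14.4%. With start sites of all annotated genes the desert shares were 1.70% and 2.29% and the number ratio 1.90; with the comprehensive annotation 7.35%, 9.42% and 1.803, and 84.8% and 45.9% were shared. Lists of equal length gave a ratio of 1.11, a TAMo share of 11.7% and shared shares of 74.4% and 64.05%. A −log10 q of at least 5 gave a TAMo share of 12.8%, requiring 50% of the peak to be covered gave shared shares of 84.1% and 43.7%, and leaving out the antigen receptor loci gave 10.3% and 12.9% of peaks.

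The median coverage ratio was 0.17 centred on all shared regions, 0.40 centred on promoters, 0.59 with at least 50 reads in the higher library, a filter that regions pass through the library where they are high, and 0.32 by fold over local background. In that order 22.1%, 28.0%, 35.3% and 18.5% of regions were at least 2-fold higher and 8.93%, 5.92%, 5.94% and 2.35% lower. The AP-1 share was 14.8% in windows of 200 bp, against 6.601% of desert windows without a summit. Of 156 values of named genes, cores and regions under these alternatives, 16 changed sign. For 5 the interval had excluded 0: centred on all shared regions, Wwox-Maf went to −0.052 and the region near Bcat1 to −0.086; by local background, Foxn3 went to 0.12 and the regions near B3gnt2 and Trib1 to 0.048 and 0.091. For the other 11 it had included 0: centred on all shared regions, Kif2a-Smim15 (−0.042), Ccdc54-Cblb (−0.21), Cblb (−0.25) and Sox5 (−0.13); centred on promoters, Cblb (−0.025); by local background, Myc-Gsdmc (0.23), Myc (0.22), Klf6 (0.070), Tox (0.17) and the regions near Sspn (0.15) and Cd47 (0.028). The cause was not tested. No paired analysis was possible because each group had 1 library, and no replicate could be left out. The median unshared desert peak had 28 reads in vehicle and 34 in TAMo, so a missing call in the other library says little at this depth. The local-background alternative, the comprehensive annotation and the removal of antigen receptor loci were chosen after the data were seen.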

Other observations

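Of 919 miRNA hairpins on chromosomes 1 to 19 in RefSeq, 151 lie in deserts, and 28 had a vehicle and 37 a TAMo desert summit within 5 kb. Deserts held 13.9 vehicle and 24.3 TAMo peaks per Mb, and the share of other desert positions this near a summit was not counted. Neighbouring hairpins beside the same peaks were each counted, such as Mir23b, Mir27b, Mir24-1 and Mir3074-1 (26 and 32 reads). The mature strands of the hairpins described below follow, with the seed (bases 2 to 8) in capitals.

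miR-148a-3p: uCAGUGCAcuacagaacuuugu
miR-193a-3p: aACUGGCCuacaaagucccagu
miR-29a-3p: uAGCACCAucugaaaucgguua
miR-29b-3p: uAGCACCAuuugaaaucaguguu
miR-9-5p: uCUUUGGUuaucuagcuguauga

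The region beside Mir148a (chr6:51270468-51271524, 162809 bp from Nfe2l3) had 297 reads in vehicle and 121 in TAMo, a log2 ratio of −1.60 (−1.91 to −1.29). The region over Mir193a had 257 and 387 reads (0.29, 0.06 to 0.52). Mir29a and Mir29b-1, which share the seed AGCACCA, lie beside the same region, with 26 and 92 reads (1.52), and a region at Mir9-2 had 44 and 119 reads (1.14); another there had 50 and 57 (−0.11). The highest coverage among hairpin regions in TAMo was 720 reads near Mir3970, against 382 in vehicle (0.61).

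The highest coverage of any desert interval was on chromosome 17 at 39843148 to 39846733. This interval overlaps the ribosomal RNA pseudogene Rn18s-rs5 (39846354 to 39848202) and lies 106346 bp from Esp38. It had 8530 reads over a local background of 3156 in vehicle and 4366 over 1611 in TAMo. A TAMo interval 157697 bp from Cxcr4 (chr1:128749775-128750143) had an implied local background of 725 reads and gave no whole coverage. By chromosome the ratio of TAMo to vehicle desert peaks ran from 1.39 on chromosome 19 to 1.96 on chromosome 16, so it was above 1 on each.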
